A study of Mus musculus with 18 samples.

Results

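Fmr1 encodes FMRP, the RNA-binding protein whose loss causes fragile X syndrome, and the 5 genes described here are Fmr1, its paralogs Fxr1 and Fxr2, and Cyfip1 and Cyfip2, whose proteins bind FMRP. They were taken by symbol from a table of 13973 genes, all 5 were present, and each was followed over all 18 libraries. Male C57BL/6N mice, at postnatal day 28 to 35 and either wild type (WT) or Fmr1 knockout (KO), gave the hippocampal-cortical slices. Slices were kept for 30 min in the solvent DMSO (vehicle) or in 20 µM homoharringtonine (HHT), a drug that holds ribosomes at the start codon while those already elongating run off. From each lysate came an input library of the cleared lysate, a medium polysome library and a heavy polysome library, made from sucrose gradient pools that were chosen by immunoblotting for FMRP.

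For each of the 3 fractions there were 2 WT HHT, 2 KO HHT, 1 WT vehicle and 1 KO vehicle libraries, so 6 lysates stand behind the 18 libraries. Every lysate pooled 10 slices from 2 to 3 mice, and the fractions of 1 lysate are not independent of each other. The KO line had been backcrossed to a C57BL/6 background. The sources used here do not name the exon that its allele disrupts. Counts are per gene, so Fmr1 reads left in KO libraries cannot be placed within the gene. The labels name separate replicates but do not say whether WT and KO lysates of equal number were prepared together.

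FMRP, FXR1P and FXR2P are related proteins with KH and RGG RNA-binding domains, and FMRP associates with polysomes and represses translation of many neuronal mRNAs. CYFIP1 and CYFIP2 are close relatives that each serve as a subunit of the WAVE regulatory complex, which activates the Arp2/3 actin nucleator downstream of the GTPase Rac1. CYFIP1 also binds the cap-binding protein eIF4E and can hold it away from the scaffold eIF4G together with FMRP. The pathway genes given further on are therefore the other WAVE subunits, Rac and Arp2/3, proteins of FMRP granules, cap-binding factors, and enzymes that modify FMRP or eIF4E.

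Because HHT acts on ribosomes at the start codon, the mRNA around that codon is shown for all 5 genes. Each line gives 12 bases of the 5′ untranslated region in lower case, the start codon in capitals and the next 15 coding bases, from the mm10 reference.
Fmr1: acggacgagaagATGgaggagctggtggtg
Fxr1: tgcggttccaacATGgcggagctgacggtg
Fxr2: ggtggcggcgccATGggcggcctggcctct
Cyfip1: gcgcagaccaggATGgctgcccaagtgaca
Cyfip2: ggcgccgcagccATGaccacccacgtcact
All 5 have a purine 3 bases before the start codon, as do 86.3% of 12736 genes with an annotated coding sequence. Fmr1, Fxr1, Fxr2 and Cyfip1 have a G directly after the start codon and Cyfip2 does not, against 52.4% of genes that do. Both features occur in 45.0% of genes, and they describe the sequence only.

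Fmr1 lies on chromosome X from 68678541 to 68717963 on the plus strand of mm10, with 17 exons and 614 codons in the longest annotated coding transcript. Fxr1 lies on chromosome 3 from 34019943 to 34070322, plus strand, with 17 exons and 677 codons. Fxr2 lies on chromosome 11 from 69632990 to 69653297, plus strand, with 17 exons and 674 codons. Cyfip1 lies on chromosome 7 from 55841745 to 55932602, plus strand, and Cyfip2 on chromosome 11 from 46193850 to 46312859, minus strand, and both have 31 exons and 1253 codons. A coding sequence of that length is longer than that of 91.4% of genes, and Fmr1's is longer than that of 64.6%. The longest run of bases that the chosen Cyfip1 and Cyfip2 transcripts share is 24, and among Fmr1, Fxr1 and Fxr2 the longest is 20. Exons of Cyfip1 overlap exons of the minus strand gene Nipa2 over 1316 bases, and Fxr1 overlaps Dnajc19 over 178 bases. The sources used here do not state whether the counting used strand, so reads of those stretches may not be told apart.

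Estimated counts totalled 6226237 to 13834652 per library. All 10 neuronal markers on the list were measured, and their summed level was between 11718 and 20297 CPM (counts scaled to library size) in each library, so the labelled tissue has its defining markers. Summed blood markers (2 of 5 measured, Hba-a2 and Hbb-bs) were 10.4 to 27.8 CPM in KO input. In WT input these sums were 2.19 to 3.51 CPM, and KO was above WT without overlap in medium and heavy too. Among single genes, every KO library lay above every WT library for 3.37% (input), 1.74% (medium) and 2.07% (heavy). HHT replicate 2 libraries had a lowest deposited normalized value of 0.772 to 0.904, against 1.00 to 1.04 in all others, so HHT effects are also given from replicate 1 alone.

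Per unit of transcript length, Cyfip2 was the most abundant of the 5 mRNAs and Fmr1 the least. On the deposited length-normalized scale, called rescaled TPM here because some libraries sum to more than TPM can, Cyfip2 ranged from 597 to 1527 over the 18 libraries. Fxr2 ranged from 129 to 242, without overlap with Cyfip2 above it or Fxr1 below it. Fxr1 ranged from 25.6 to 73.1 and Cyfip1 from 12.0 to 52.7, and these neighbours overlapped. Fmr1 ranged from 9.48 to 20.4 in WT libraries, below Fxr1 throughout, and from 3.05 to 5.80 in KO libraries. In the WT vehicle medium library Fmr1, at 17.7, was above Cyfip1, at 12.0, and in every other library it was below it.

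**Figure D1:**
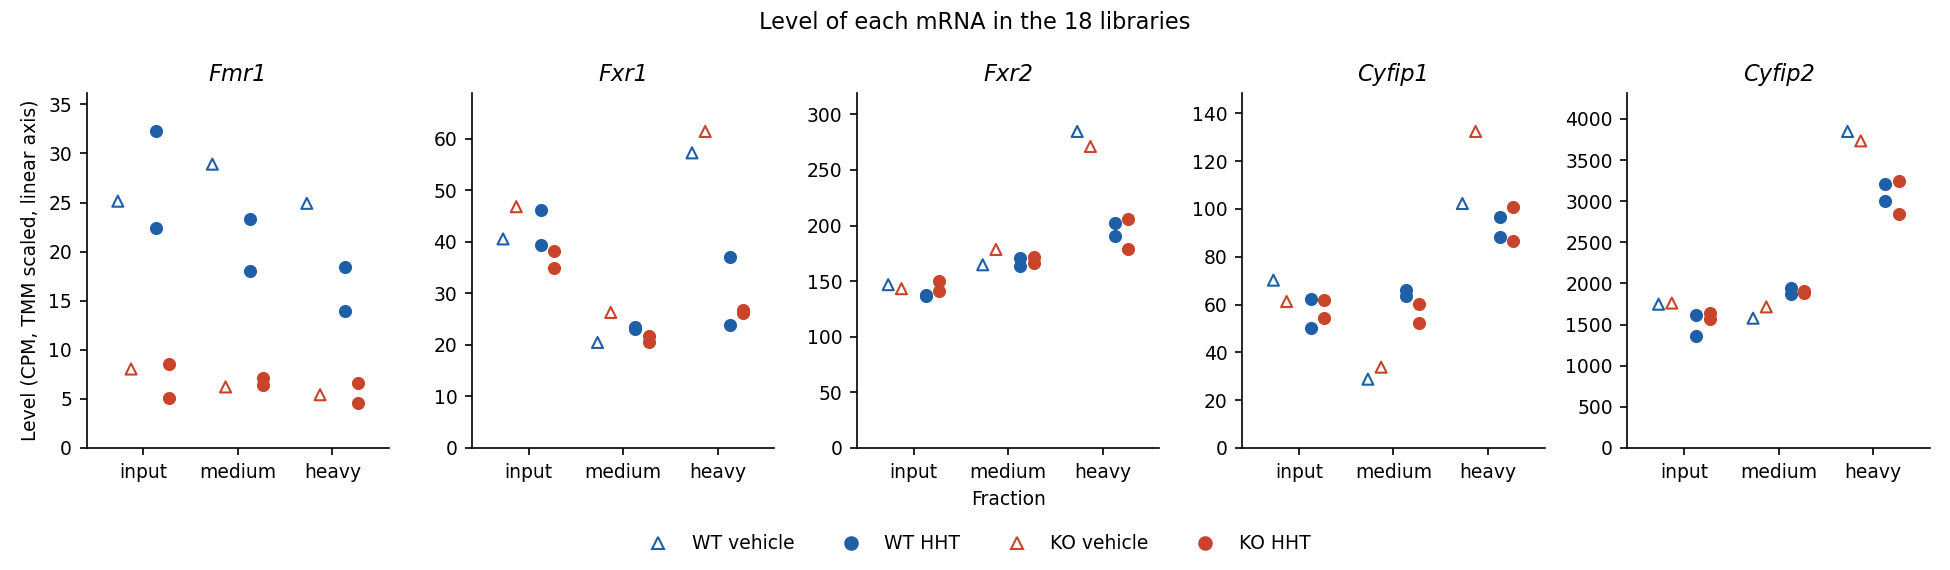
Level of each of the 5 mRNAs (CPM, linear axes that start at 0 and differ between panels) in input, medium and heavy libraries. Triangles are single vehicle libraries and circles HHT libraries, blue for WT and red for KO. Fmr1 is the gene whose KO and WT points are apart in all 3 fractions, and Cyfip1 has its lowest points, 28.8 and 33.8 CPM, in the vehicle medium libraries.

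Fmr1 mRNA was lower in KO than in WT input and medium polysomes. It was counted in every KO library, but this holds for all 13973 genes, as the lowest normalized value of any library was 0.772. In WT input, Fmr1 was at 22.4 and 32.2 CPM after HHT and 25.1 CPM in vehicle. In KO input it was at 8.53 and 5.07 CPM after HHT and 8.04 CPM in vehicle. Every KO library lay below every WT library, a separation in that direction that 3.51% of genes had in input.

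In medium polysomes, WT levels of Fmr1 were 18 and 23.3 CPM after HHT and 28.9 CPM in vehicle, and KO levels were 7.09 and 6.44 CPM after HHT and 6.21 CPM in vehicle. In heavy polysomes, WT levels were 13.9 and 18.4 CPM after HHT and 24.9 CPM in vehicle, and KO levels were 6.60 and 4.62 CPM after HHT and 5.42 CPM in vehicle. KO and WT did not overlap in either fraction, against 2.33% of genes in medium and 1.75% in heavy that separated with KO lower. The Fmr1 counts behind these levels were 36.7 to 113.4 estimated counts in KO libraries and 92.7 to 300.1 in WT libraries.

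With both treatments averaged, Fmr1 was 3.53-fold lower in KO input, a log2 difference of -1.82 ± 0.24 (SE; edgeR quasi-likelihood test, adjusted p = 0.038), and 3.77-fold lower in KO medium, at -1.91 ± 0.25 (adjusted p = 0.041). In heavy the difference was -1.87 ± 0.27 and did not pass 0.05 (adjusted p = 0.103). Of 13973 genes, Fmr1 was the only 1 called in input and the only 1 in medium, which is 0.00716% in each, and none (0%) was called in heavy, where 237 had an unadjusted p under 0.05. DESeq2 called 3 genes in input and 2 in medium. Fmr1 had the lowest log2 difference of all genes in each of the 3 fractions.

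These calls were near the threshold. For input, leaving out WT HHT replicate 2 gave -1.69 (adjusted p = 0.148), and leaving out KO HHT replicate 2 gave -1.65 (adjusted p = 0.149). In medium it was 0.0915 without WT HHT replicate 1 (-2.00), 0.27 without WT HHT replicate 2 (-1.81), 0.258 without KO HHT replicate 1 (-1.95) and 0.26 without KO HHT replicate 2 (-1.88). Fmr1 was lower in KO in all of these fits.

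In HHT slices alone, the Fmr1 difference was -2.00 ± 0.27 for input, with an edgeR adjusted p of 0.0647. It was -1.61 ± 0.28 for medium and -1.54 ± 0.30 for heavy, with adjusted p of 0.722 and 0.751. No gene (0%) was called in any of the 3, and 679, 387 and 412 genes had an unadjusted p under 0.05, while DESeq2 gave Fmr1 adjusted p of 7.99e-07, 0.00314 and 0.0319. With a replicate block for equal numbers of WT and KO, the input difference was -1.99 (adjusted p = 0.00909). In vehicle slices, with 1 library a side and so no test, the log2 ratio of KO to WT was -1.64 in input, -2.22 in medium and -2.20 in heavy. Of all genes, 0.258%, 0.329% and 0.408% were more than 2-fold lower in those pairs.

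Averaged over its 3 fractions, each lysate gives 1 value for Fmr1. The KO lysates were at 2.71 ± 0.23 log2 CPM (SD, n = 3) and the WT lysates at 4.50 ± 0.29 (SD, n = 3), a difference of -1.79, or 28.9% of WT. An exact permutation test over the 6 lysates gave p = 0.1, 2-sided, the smallest that 3 against 3 allows.

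Fmr1 was a minor member of its family at the RNA level in both genotypes. Its share of the summed rescaled TPM of Fmr1, Fxr1 and Fxr2 was 7.33% to 9.79% in WT input and 1.70% to 2.89% in KO input. In medium the share was 5.84% to 9.18% in WT and 1.92% to 2.36% in KO. In heavy it was 4.02% to 4.68% in WT and 1.01% to 2.04% in KO. The genotypes did not overlap in any fraction (exact permutation test, 2-sided, p = 0.1 in each, the smallest possible with 3 libraries a side, and 0.1 adjusted over the 3 fractions).

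Fxr2 made up 61.6% to 84.0% of the family and Fxr1 13.3% to 30.2%. The family sum was 199.5 ± 19.6 in KO input and 215.1 ± 12.4 in WT input (SD, n = 3, rescaled TPM; exact permutation p = 0.4, 2-sided, 0.6 adjusted over the 3 fractions). The corresponding sums overlapped in medium (exact permutation p = 0.5) and in heavy (exact permutation p = 0.6).

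**Figure D2:**
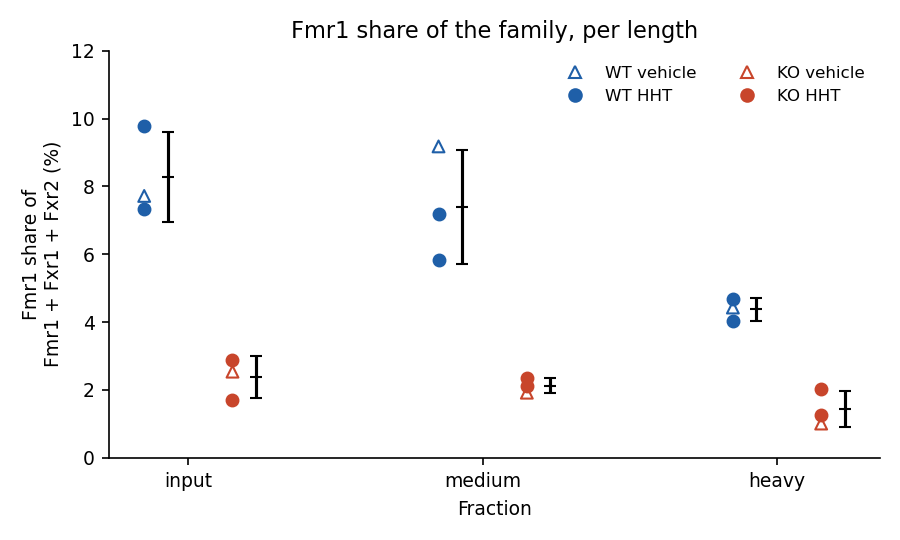
Share of Fmr1 in the summed rescaled TPM of Fmr1, Fxr1 and Fxr2 (%, linear axis) for each library by fraction. Triangles are vehicle and circles HHT, blue for WT and red for KO, and black bars are the mean ± SD of the 3 libraries of a genotype. The KO points, at most 2.89%, lie below the WT points, at least 4.02%, in every fraction.

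No paralog or partner was called between KO and WT in any fraction, and neither was any other gene but Fmr1. Fxr1, an autosomal paralog that is also prominent in muscle, was at 39.3, 46.1 and 40.5 CPM in WT input and 38.3, 34.8 and 46.8 CPM in KO input. The 95% interval of its log2 difference over both treatments was -0.34 to 0.33 in input, -0.25 to 0.47 in medium and -0.40 to 0.29 in heavy. Fxr2, the paralog most abundant here, was at 138, 137 and 147 CPM in WT input and 142, 150.3 and 143 CPM in KO input. Its intervals were -0.20 to 0.25 in input, -0.16 to 0.29 in medium and -0.27 to 0.17 in heavy.

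Cyfip1 intervals for KO against WT over both treatments were -0.36 to 0.21 in input, -0.28 to 0.31 in medium and -0.08 to 0.48 in heavy, and those of Cyfip2 were -0.17 to 0.30, -0.18 to 0.29 and -0.27 to 0.20. All 4 genes overlapped between genotypes in all 3 fractions. Over both treatments no interval of these 4 genes goes beyond 0.48 in size, and that of Fmr1 in input was -2.33 to -1.31. In HHT slices alone the intervals were wider, and the farthest bounds were those of Fxr1, at -0.61 for input, -0.54 for medium and -0.62 for heavy. The summed blood markers given above also separated the genotypes, and their part in the KO and WT comparisons was not tested. In bulk libraries such as these, fewer cells of a type and less RNA per cell cannot be told apart.

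In vehicle slices the 5 mRNAs were spread unequally over the gradient. Cyfip1, the eIF4E-binding partner, fell from 70.2 CPM in WT input to 28.8 CPM in WT medium and stood at 102 CPM in WT heavy. In KO it went from 61.3 CPM in input to 33.8 CPM in medium and 132 CPM in heavy. The medium level was below input in both lysates and the heavy level above it.

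With the genotypes averaged, Cyfip1 in vehicle was 2.1-fold lower in medium than in input (log2 -1.07 ± 0.16, edgeR adjusted p = 0.00364) and 3.73-fold higher in heavy than in medium (1.90 ± 0.16, edgeR adjusted p = 1.96e-06). The change from medium to heavy was higher for Cyfip1 than for 98.9% of genes. Nipa2, whose exons overlap those of Cyfip1, went the other way, with a heavy over medium value of -1.28 ± 0.26.

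Fxr1 had the same shape in vehicle slices. In WT it was at 40.5 CPM in input, 20.5 in medium and 57.2 in heavy, and in KO at 46.8, 26.3 and 61.4. Its medium level was 1.88-fold lower than input (log2 -0.91 ± 0.19, adjusted p = 0.00757) and its heavy level 2.55-fold higher than medium (1.35 ± 0.19, adjusted p = 5.46e-05). Heavy over input was 0.44 ± 0.18 for Fxr1 (adjusted p = 0.0592), and it passed 0.05 with a lysate block (adjusted p = 0.0312), without WT HHT replicate 1 (0.0301) or 2 (0.0303) and with DESeq2 (0.0326).

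The more abundant member of each pair was also the highest in heavy polysomes. Cyfip2 was at 1748, 1578 and 3848 CPM in WT vehicle input, medium and heavy, and at 1761, 1715 and 3733 CPM in KO. Fxr2 was at 147, 165 and 285 CPM in WT and 143, 178 and 271 CPM in KO. Heavy over input was 1.11 ± 0.13 for Cyfip2 and 0.94 ± 0.12 for Fxr2 on the log2 scale, and both rose.

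For Fmr1 in vehicle slices, heavy over medium was -0.21 ± 0.31 and heavy over input -0.29 ± 0.29, neither past 0.05. Between medium and input in vehicle, 2 of the 5 were called, both lower, against 19.7% of all genes (10.2% higher and 9.5% lower). Between heavy and input 3 were called higher, against 46.5% of genes called and 24.8% called higher. Between heavy and medium 4 were called higher, against 54% of genes called and 25.9% called higher. In a fit of each genotype alone, with 1 vehicle library per fraction, no gene was called between medium and input (adjusted p from 0.0507 to 0.186 for Cyfip1 and Fxr1). The share of called genes that were lower depended on scaling, from 46.6% with TMM to 74.7% with total counts for heavy against input, 52% to 68.6% for heavy against medium, and 48.2% to 75.8% on log2(rescaled TPM + 1) for medium against input.

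After HHT, in heavy against input, Cyfip2 was 0.99 ± 0.09, Cyfip1 0.70 ± 0.11 and Fxr2 0.46 ± 0.09 higher on the log2 scale, while Fxr1 was lower at -0.47 ± 0.13 and Fmr1 lower at -0.50 ± 0.20, so all 5 were called where 58% of genes were. The Fmr1 call (adjusted p = 0.0452) was lost when any HHT lysate was left out, at 0.0593 without WT replicate 1, 0.112 without WT replicate 2, 0.162 without KO replicate 1 and 0.077 without KO replicate 2. The Fxr1 call (adjusted p = 0.00733) was lost without KO HHT replicate 1 (-0.43, adjusted p = 0.0696).

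In medium against input after HHT, Fxr1 fell by 0.83 ± 0.13, Cyfip2 rose by 0.30 ± 0.09 and Fxr2 rose by 0.25 ± 0.09 on the log2 scale, and Cyfip1 and Fmr1 did not pass (0.08 ± 0.11 and -0.19 ± 0.19). That is 3 of 5 against 30.4% of genes. The Cyfip2 and Fxr2 calls were each lost when any 1 HHT lysate was left out, with adjusted p of 0.0514 without WT replicate 1, 0.187 without WT replicate 2, 0.0531 without KO replicate 1 and 0.155 without KO replicate 2 for Cyfip2, and of 0.112, 0.211, 0.126 and 0.162 in that order for Fxr2.

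In heavy against medium after HHT, Cyfip2 rose by 0.69 ± 0.09 and Cyfip1 by 0.63 ± 0.11, where 35.8% of genes were called and 19% were called higher. With a lysate block, which pairs fractions of 1 lysate, Fxr1 (0.35, adjusted p = 0.0308) and Fxr2 (0.21, adjusted p = 0.0414) were called too. Fmr1 was at -0.31 ± 0.21 (adjusted p = 0.26). With total counts in place of TMM, the median of all genes in heavy against input moved from -0.04 to -0.28, and the lower share of called genes went from 52.4% to 71.9% there, from 47.1% to 72.5% in heavy against medium and from 56% to 66.8% in medium against input.

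Relative to the other mRNAs of a fraction, Cyfip1 was higher in medium polysomes after HHT and Fxr1 was lower in heavy polysomes. These were the largest HHT differences among the 5 genes. The amount of RNA in each fraction was not used, so a change in amount cannot be read from them. Cyfip1 was at 66.0 and 63.4 CPM in WT HHT medium and 60.4 and 52.2 CPM in KO HHT medium, against 28.8 CPM in WT vehicle and 33.8 CPM in KO vehicle. All 4 HHT libraries were above both vehicle libraries, a separation that 33.9% of genes had in that direction. The log2 difference was 0.95 ± 0.14, or 1.94-fold (edgeR adjusted p = 0.000213).

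Cyfip1 was the only member called in medium, where 47% of genes were called and 25.4% were called higher. From HHT replicate 1 lysates alone its difference was 1.02 (adjusted p = 1.11e-06), from replicate 2 alone 0.88, in WT alone 1.15 and in KO alone 0.74. In medium the other 4 did not pass, with Cyfip2 at 0.21 ± 0.11, Fmr1 at -0.18 ± 0.25, Fxr1 at -0.06 ± 0.17 and Fxr2 at -0.03 ± 0.10. In input none of the 5 passed, where 12.4% of genes did, and the widest 95% interval was that of Fmr1, from -0.57 to 0.43.

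In heavy polysomes Fxr1 was at 23.8 and 37.1 CPM in WT HHT and 26.2 and 26.7 CPM in KO HHT, against 57.2 CPM in WT vehicle and 61.4 CPM in KO vehicle. The 4 HHT libraries were below both vehicle libraries, as for 32.9% of genes. The log2 difference was -1.06 ± 0.16, or 2.08-fold lower (edgeR adjusted p = 8.2e-05), and from HHT replicate 1 lysates alone it was -1.25 (adjusted p = 1.98e-08), from replicate 2 alone -0.92.

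Fxr2 in heavy was at 191 and 203 CPM in WT HHT, 179 and 206 CPM in KO HHT, 285 CPM in WT vehicle and 271 CPM in KO vehicle, and it fell by 0.51 ± 0.10 on the log2 scale (adjusted p = 0.000846), with -0.59 from HHT replicate 1 lysates alone. Cyfip2 fell by 0.30 ± 0.11 (adjusted p = 0.0318), from 3848 and 3733 CPM in vehicle to between 2846 and 3250 CPM after HHT. That call was lost without WT HHT replicate 1 (-0.28, adjusted p = 0.0965), without WT HHT replicate 2 (-0.33, adjusted p = 0.0553) and without KO HHT replicate 1 (-0.27, adjusted p = 0.0831), and from replicate 2 lysates alone (-0.25, adjusted p = 0.0511). Cyfip1 was at -0.32 ± 0.13 (adjusted p = 0.0505), and -0.43 from HHT replicate 1 lysates alone (adjusted p = 0.00307). That value also passed 0.05 with a replicate block (-0.32, 0.0389), with a mean of at least 5 CPM (-0.33, 0.0329), with RLE factors (-0.44, 0.0116) and with DESeq2 (-0.44, 0.0146). Fmr1 was at -0.29 ± 0.27 (adjusted p = 0.411), so 3 of 5 were called lower in heavy against 51.8% of genes called, 27.1% higher and 24.7% lower.

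The scale of the values moved these sizes. On log2(rescaled TPM + 1), the median HHT difference of all genes in heavy was 0.24 instead of 0.06, and Fxr2 was at -0.28 (adjusted p = 0.0519) and Cyfip2 at -0.07 (adjusted p = 0.683). Both lay below the median of all genes on either scale. On that scale 30.7% of the genes called were lower, against 47.7% with CPM. In input that share was 1.73%, and 14.2% with total counts.

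Cell type markers moved with HHT too. Summed neuronal markers were 14571 to 15857 CPM in HHT heavy and 19783 to 20297 CPM in vehicle heavy, and 15392 to 15806 CPM in HHT medium against 11718 to 12590 CPM in vehicle medium. In input the neuronal sums overlapped, at 13181 to 14679 CPM after HHT and 12591 to 13193 CPM in vehicle. Summed astrocyte markers in input were 2218 to 2668 CPM after HHT and 1591 to 1834 CPM in vehicle, microglia markers 113.8 to 145 against 59.3 to 90.6 CPM, and vessel markers 51.1 to 65.2 against 26.7 to 27.7 CPM. In heavy the treatments overlapped for astrocyte markers (2500 to 3551 against 2460 to 2542 CPM) and microglia markers (37.2 to 61.1 against 56.7 to 58.1 CPM). Summed oligodendrocyte markers were higher after HHT without overlap in all 3 fractions, at 3784 to 4393 against 3209 to 3444 CPM in input, 3541 to 4328 against 3303 to 3342 CPM in medium and 3602 to 4076 against 3258 to 3308 CPM in heavy. The part of the neuron, astrocyte, oligodendrocyte, microglia and vessel markers in the HHT results was not tested.

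**Figure D3:**
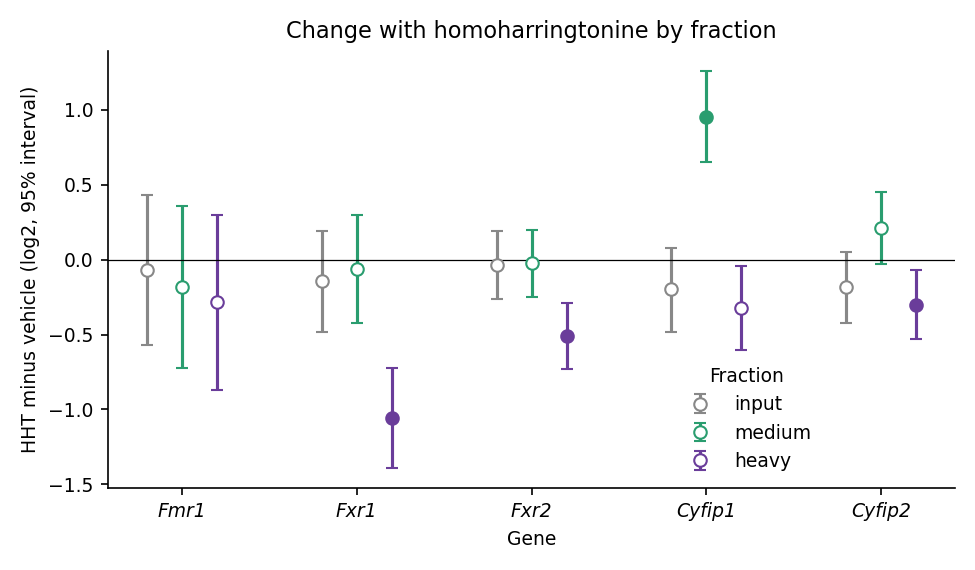
HHT minus vehicle difference (log2, points) with its 95% interval (bars) for each gene in input (grey), medium (green) and heavy (purple). Filled points passed an adjusted p of 0.05. Cyfip1 in medium, at 0.95, is the only filled point above 0, and Fxr1, Fxr2 and Cyfip2 in heavy are the filled points below it.

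The heavy to medium ratio of each lysate put these changes together. For Cyfip1 the ratio was 3.55 in the WT vehicle lysate and 3.92 in the KO vehicle lysate, against 1.33 and 1.53 in WT HHT and 1.43 and 1.93 in KO HHT. For Fxr1 it was 2.80 and 2.34 in WT and KO vehicle, against 1.01 and 1.61 in WT HHT and 1.2 and 1.3 in KO HHT. Both vehicle lysates were above all 4 HHT lysates for each of these genes. The same held for Cyfip2 (2.44 and 2.18 in WT and KO vehicle against 1.52 to 1.71) and Fxr2 (1.73 and 1.52 against 1.07 to 1.2). The share of all genes with such a separation of the ratio was not computed. For levels in a single fraction, 65.5% of genes in medium and 68.2% in heavy separated by treatment in either direction. For Fmr1 the ratio was 0.862 and 0.872 in WT and KO vehicle, inside its HHT range of 0.718 to 0.930.

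The HHT shift of the heavy to medium ratio was -1.27 ± 0.19 for Cyfip1 (edgeR adjusted p = 0.000272) and -0.995 ± 0.23 for Fxr1 (adjusted p = 0.005), and from HHT replicate 1 lysates alone they were -1.45 and -1.2. Cyfip2 shifted by -0.51 ± 0.16 and Fxr2 by -0.49 ± 0.15 (adjusted p = 0.0203 for each). Fmr1 shifted by -0.11 ± 0.37 (adjusted p = 0.849). That is 4 of 5 called lower, where 36.5% of all genes were called and 18.4% were called lower, and the median over all genes was 0.12.

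The Cyfip2 shift of the heavy to medium ratio lost its call without WT HHT replicate 1 (-0.47, adjusted p = 0.0671) or KO HHT replicate 1 (-0.47, adjusted p = 0.0562). That of Fxr2 lost it without WT HHT replicate 1 (-0.48, adjusted p = 0.0598), WT HHT replicate 2 (-0.49, adjusted p = 0.0541) or KO HHT replicate 1 (-0.45, adjusted p = 0.0682). With total counts in place of TMM scaling the all-gene median was 0.28, and Cyfip2 and Fxr2 missed 0.05 as well (adjusted p of 0.0692 and 0.0904). Of the genes called for this shift 50.4% were lower, and 37.3% with total counts.

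Against input, HHT raised the medium ratio of Cyfip1 by 1.15 ± 0.19 (adjusted p = 0.00382), the only call among the 5 where 17.3% of genes were called, 7.09% higher and 10.2% lower. HHT shifted the heavy to input ratio of Fxr1 by -0.91 ± 0.22 (adjusted p = 0.00831) and that of Fxr2 by -0.48 ± 0.15 (adjusted p = 0.0272), where 28.9% of genes were called and 16.3% were called lower. The Fxr2 value lost its call without any of the 4 HHT lysates in turn (adjusted p from 0.0597 to 0.0871), and for Fxr1 on log2(rescaled TPM + 1) the value was -0.58 (adjusted p = 0.0779). On that scale the lower share of called genes was 34.5% instead of 59% for the medium to input shift and 24.3% instead of 56.4% for the heavy to input shift.

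Within the CYFIP pair, the medium fraction changed most. Cyfip2 rescaled TPM was 51.5 and 55.6 times that of Cyfip1 in the KO and WT vehicle medium libraries, and 29.9 to 37.1 times after HHT. An exact permutation test of the log2 ratio in medium gave p = 0.0667, 2-sided, the smallest that 4 against 2 libraries allow, and 0.2 adjusted over the 3 fractions. In input the ratio was 26.4 to 29.3 after HHT and 25.3 and 29.2 in vehicle, and in heavy 32.7 to 34.6 after HHT and 28.6 and 38.2 in vehicle, where the treatments overlapped.

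**Figure D4:**
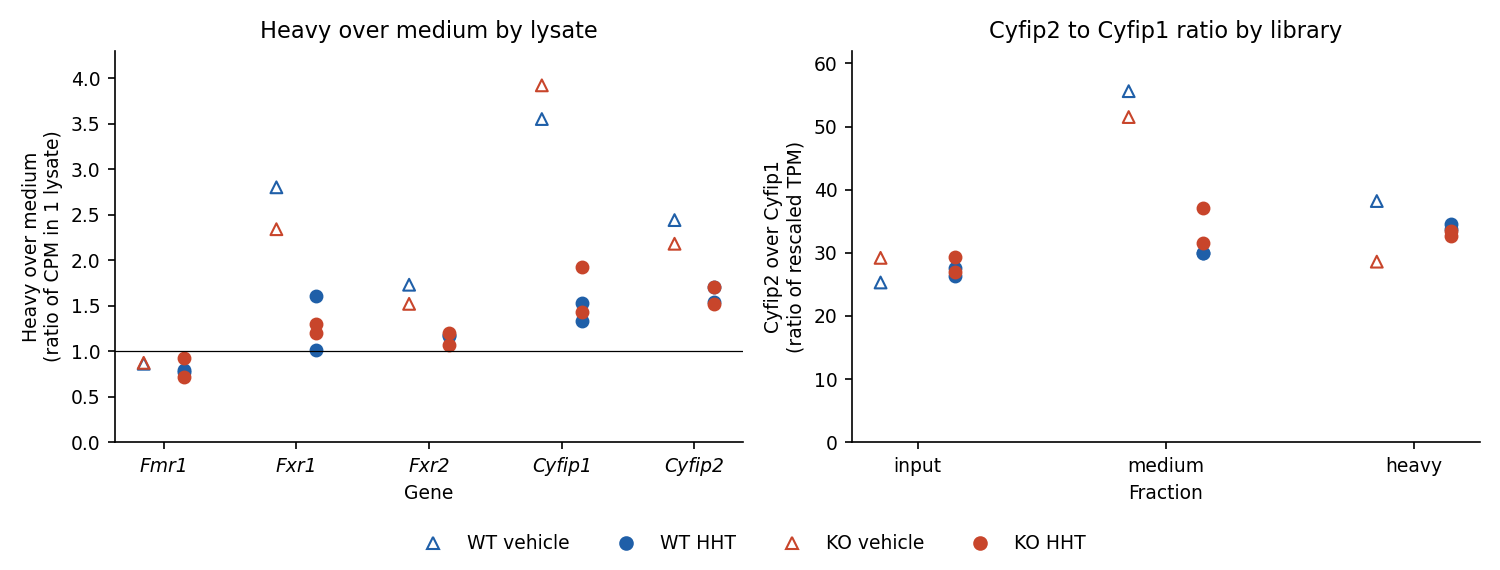
Left, heavy over medium ratio of CPM in each of the 6 lysates by gene, and right, Cyfip2 over Cyfip1 ratio of rescaled TPM in each of the 18 libraries by fraction (linear axes from 0). Triangles are vehicle and circles HHT, blue for WT and red for KO, and the line on the left marks equal levels. The vehicle points of Cyfip1, Fxr1, Cyfip2 and Fxr2 lie above their HHT points, and the vehicle medium points on the right, 51.5 and 55.6, lie above the HHT points.

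Of the proteins found with FMRP in RNA granules, a list of 22 mRNAs of which all were measured, 15 fell and 2 rose with HHT in heavy polysomes, with a median log2 difference of -0.48 against 0.06 over all genes, of which 24.7% were called lower and 27.1% higher. The mRNAs with the smallest adjusted p were Ythdf2 (-1.23 ± 0.11), an m6A reader, the stress granule proteins G3bp2 (-1.27 ± 0.12) and Caprin1 (-1.04 ± 0.10), and Stau1 (-1.17 ± 0.11), a double-stranded RNA-binding protein of transport granules. Caprin1 was at 497 and 520 CPM in WT and KO vehicle heavy libraries and between 235 and 263 CPM in the HHT heavy libraries. On log2(rescaled TPM + 1) 9 of the 22 fell and 3 rose, and 10 fell in each genotype alone.

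In medium polysomes 8 of the 22 granule mRNAs rose and 1 fell with HHT, where 25.4% of all genes were called higher and 21.5% lower. Atxn2 rose by 0.93 ± 0.11, Atxn2l by 0.88 ± 0.11 and Caprin1 by 0.78 ± 0.11, while Cnbp, a zinc finger RNA-binding protein, fell by 1.30 ± 0.18. The heavy to medium ratio of the list shifted down in 14 and up in 2 of 22, with a median of -0.83 against 0.12 over all genes, of which 18.4% were called lower and 18.1% higher. In vehicle slices heavy exceeded medium in 15 of the 22 and was below it in 2, with total counts in 12 and 3, where 25.9% of all genes were called higher and 28.1% lower.

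The other WAVE subunits were called for the heavy to medium shift at near the shares of all genes, in both directions. Of 9, the heavy to medium shift was lower in 2, Nckap1l (-1.46 ± 0.30), the blood cell form of NCKAP1, and Wasf1 (-0.65 ± 0.17), the neuronal WAVE1. It was higher in Brk1 (0.84 ± 0.20), the small HSPC300 subunit, and Wasf3 (0.61 ± 0.17), against the same 18.4% of all genes lower and 18.1% higher. Nckap1, the direct partner of the CYFIPs in the complex, had heavy over input of 0.50 ± 0.09 after HHT.

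Of 12 Rac and Arp2/3 mRNAs, all 12 fell in heavy against input after HHT, where 58% of all genes were called and 30.4% were called lower. The smallest adjusted p belonged to Arpc2 (-0.81 ± 0.10) and Arpc5 (-0.77 ± 0.10). In medium, HHT lowered 8 of the 12, among them Arpc3 (-1.29 ± 0.18) and Arpc4 (-0.82 ± 0.13), with a list median of -0.55 against 0.03 over all genes, of which 21.5% were called lower, and 3 fell in KO slices alone. In heavy against input after HHT, Cyfip1 was at 0.70 and Cyfip2 at 0.99.

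Among 13 cap-binding factors and 4E-BPs, HHT raised Eif4g3 (1.32 ± 0.19) and Eif4g1 (0.95 ± 0.16), scaffolds of the cap complex, in medium, and lowered 5 including Eif4e (-0.99 ± 0.16), the CYFIP1-bound cap-binding protein, and the helicase cofactor Eif4h (-0.96 ± 0.12). In heavy 2 of the 13 rose and 3 fell, with the helicase Eif4a1 at -1.39 ± 0.14. Of all genes, 25.4% were called higher and 21.5% lower in medium, and 27.1% higher and 24.7% lower in heavy, so the heavy counts of this list are no higher than the background. Among 11 enzymes that modify FMRP or eIF4E, 4 fell in medium, with the casein kinase 2 subunit Csnk2b at -1.05 ± 0.15, and in heavy 3 rose and 5 fell, with the arginine methyltransferase Prmt1 at -0.99 ± 0.14 and the eIF4E kinase Mknk2 at 0.66 ± 0.13. The 3 of 11 that rose in heavy are near the 27.1% of all genes called higher there, and 24.7% were called lower, with 21.5% lower in medium.

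**Figure D5:**
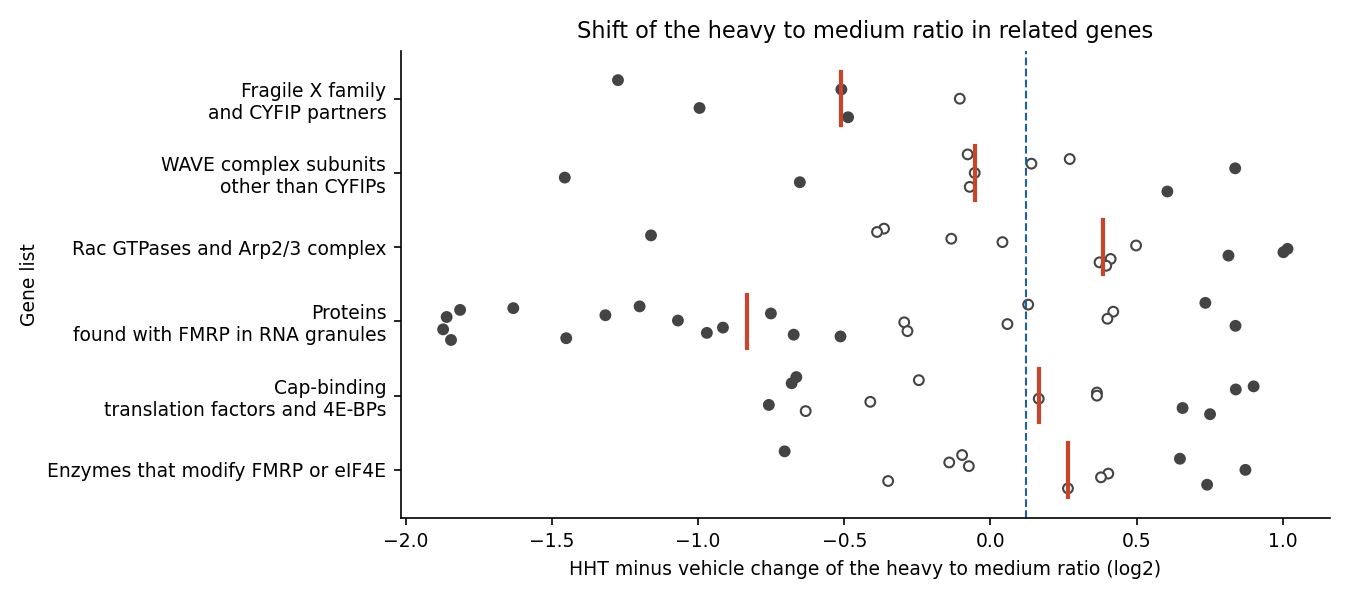
HHT shift of the heavy to medium ratio (log2, horizontal axis) for each measured gene of 6 lists. Filled points passed an adjusted p of 0.05, red bars are list medians and the dashed line is the median of all genes, 0.12. The granule list has its median at -0.83 and the 5 genes described here at -0.51, while the Rac and Arp2/3 list has its median at 0.38.

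Neighbours on the chromosome gave a further reference. Of 5 X chromosome neighbours of Fmr1 on the list 4 were measured, Slitrk2, Slitrk4, Aff2 and Ids. None of these 4 was called between KO and WT in any fraction. Over both treatments 0.00716% of all genes were called in input and in medium, and 0% in heavy, so this sets the neighbours apart from no other gene but Fmr1. Ids, a lysosomal sulfatase, was at 0.04 ± 0.15 in input over both treatments. All 4 rose with HHT in medium, with Slitrk2 at 1.52 ± 0.24 and Ids at 0.95 ± 0.16 (3 in WT slices alone and 2 in KO slices alone), against 25.4% of all genes called higher, where Fmr1 was at -0.18 ± 0.25. Of the 4 neighbours of Cyfip1, Nipa1 (0.96 ± 0.21) and Herc2 (0.68 ± 0.23) rose with HHT in medium, where Cyfip1 was at 0.95. Herc2, a giant ubiquitin ligase, also rose in heavy (1.67 ± 0.23), where Cyfip1 was at -0.32. Outside Fmr1 itself, no gene of any pathway, neighbour or marker list was called between KO and WT, and neither was any other of the 13973 genes.

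No difference between genotypes in the HHT response passed the test for any of the 5 genes. The interaction of genotype and treatment in Fmr1 was -0.35 ± 0.47 in input, 0.60 ± 0.50 in medium and 0.65 ± 0.54 in heavy, and the other members ranged from -0.50 to 0.24. The intervals are wide, and that of Fmr1 in heavy ran from -0.50 to 1.81. The KO effect on medium over input and heavy over input was not called in any member either, and over all genes 0 and 1 were called (0% and 0.00716%), with 0, 0 and 0 for the interactions, where 214, 187 and 104 genes had an unadjusted p under 0.05.

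Over the 18 libraries, log2 CPM of Cyfip2 followed that of Fxr2 (Pearson r = 0.90) and Cyfip1 (0.83), whereas Fmr1 had r from -0.21 to 0.11 with the other 4. These are descriptions over libraries that share lysates and fractions. They also take in both genotypes, and Fmr1 in KO lysates was at 28.9% of WT. The r of Fmr1 therefore includes the genotype difference and does not compare its spread over fractions with that of the other 4. Values of r within WT libraries were not computed. Among 10801 genes with a mean of at least 5 CPM, those nearest to Fmr1 were Arhgap6 (r = 0.804), Zak (0.748), Fpgt (0.706), Cab39l (0.671) and Qtrtd1 (0.661). Nearest to Fxr1 were Dnttip2 (0.952), Tbc1d15 (0.949), Tax1bp1 (0.948), Zfp39 (0.944) and Gnl2 (0.944).

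Among those nearest to Fxr2 were Camk2b (0.980), Camkv (0.978), Kcnab2 (0.977) and Rap1gap (0.974). Nearest to Cyfip1 were Smarca2 (0.981), Trp53bp1 (0.981), Edrf1 (0.979), Synj1 (0.979) and Asxl1 (0.979), and nearest to Cyfip2 were Tnpo2 (0.997), Dpp9 (0.994), Camsap1 (0.994), Irgq (0.993) and Efr3b (0.993). Over libraries of both genotypes, the highest r of Fmr1 with any gene was thus lower than that of each of the other 4, which were 0.952 or more. These lists depended on the measure. Ranked by Spearman correlation with Cyfip1, Smarca2 was at 14.5, Trp53bp1 at 24.5, Synj1 at 73.5, Asxl1 at 109 and Edrf1 at 676.5. For Fxr1, Dnttip2 ranked 2 and Tbc1d15 38, while Arhgap6 remained at rank 1 for Fmr1.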

How the data were processed

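Total RNA of input, medium and heavy fractions was sequenced in 18 libraries. The authors' deposited count table holds estimated counts for 13973 genes (0 of 251514 values are whole, tolerance 1e-06). A second deposited table, called TPM by the authors, is treated as a score (rescaled TPM), since 10 of its 18 columns sum to more than TPM allows. The counts equal it times 1 factor per gene and 1 per library. Per the submitters' processing notes, mm10, RSEM 1.2.11, Bowtie2 2.1.0, DESeq2 1.16.1 and Trimmomatic 0.32 were used, with no role stated. The sources used here do not say how genes were selected.

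Counts were rounded, scaled by TMM and fitted over all libraries as 12 group means (6 residual degrees of freedom) by edgeR's quasi-likelihood test (edgeR 4.0.16, R 4.3.3). Benjamini-Hochberg adjustment ran over all 13973 genes in each of 23 comparisons at 0.05, and tests were 2-sided. The low-count filter kept every gene. Single vehicle libraries were taken to have the spread of the HHT groups. P-values measure the spread between these pooled lysates. On simulated independent libraries with 100 genes changed at each fold, 81% of 2-fold and 97% of 4-fold changes were recovered for KO against WT in HHT input. For HHT against vehicle in medium 84% and 95% were recovered, and unchanged genes gave 12 and 9 false calls. In the real HHT input comparison no gene was called, and Fmr1, 3.99-fold lower, missed 0.05 (edgeR adjusted p = 0.0647). The simulated shares therefore do not give the power of the KO comparisons.

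Genes named were the 5 members, up to 4 per list and comparison by smallest adjusted p, and the 5 nearest to each member by Pearson r, of which 1 is not reported here. The members and lists were chosen with earlier results of these data known. Start contexts and gene positions came from GENCODE M21 on mm10.

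Alternatives were RLE factors, total counts, no filter, a mean of at least 5 CPM, each HHT lysate left out, replicate or lysate blocks, fewer libraries, each genotype alone, limma 3.58.1 on log2(rescaled TPM + 1) and DESeq2 1.42.0. Added after seeing the data were HHT replicate 1 or 2 alone and each genotype alone for fractions. Fractions of 1 lysate share their source. For WT and KO lysates of equal number, deviations correlated at 0.323 in input, 0.165 in medium and 0.00332 in heavy. For medium and input of the same KO lysates the value was 0.211, so these correlations do not settle whether equal numbers share a preparation. The name of the deposited data refers to batches, and the sources used here do not say which libraries each batch holds. The HHT replicate 2 libraries of both genotypes stood apart in their lowest deposited value, with every vehicle library on the side of HHT replicate 1. Whether this marks a batch was not tested. The main fit did not pair equal numbers because the labels do not say that they belong together, and the replicate block is given as an alternative.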

Additional observations from a re-analysis of the deposited data

How the results depend on the processing

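Of 32 values of the 5 genes past 0.05, 420 of 486 alternative values kept call and direction, 66 lost the call and 0 reversed. Among the rest 37 gained a call, and 73 values past 0.05 in neither fit changed sign. Fmr1 has the widest intervals of the 5 genes, and the fewest counts in all libraries but WT vehicle medium and WT HHT medium replicate 2. This limits its comparisons.

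Fmr1 in KO against WT was lower in every fit. Under HHT the adjusted p passed 0.05 with DESeq2 (-1.99 in input, -1.61 in medium, -1.53 in heavy) and in the 4 HHT libraries of a fraction alone with a replicate block (-2.00, -1.61 and -1.55). In medium it also passed in those 4 libraries without the block (-1.62), and it passed with the 6 libraries of a fraction and a treatment term in medium (-1.79) and heavy (-1.76). With a replicate block over all libraries the input value was -1.99 (adjusted p = 0.00909). Each of these fits called 1 of the 5 genes instead of 0. Over both treatments, heavy passed with the replicate block (-1.87, adjusted p = 0.022), the 6 libraries alone (-1.76) and DESeq2 (-1.87), with 1 call. Input lost its call with a mean of at least 5 CPM (-1.82), the 6 libraries alone (-1.87) and limma on rescaled TPM (-1.67), and medium with total counts (-1.93), a mean of at least 5 CPM (-1.93) and limma (-1.69), with 0 calls. Left-out lysates gave -2.03 to -1.65 in input and -2.00 to -1.81 in medium, with 0 to 1 calls. The cause was not tested.

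Counts of the 5 genes called moved as follows. HHT against vehicle in medium gave 2 from HHT replicate 1 alone, and in heavy 1 with limma. Medium against input after HHT gave 1 in each genotype alone and 1 for each left-out lysate, heavy against input 3 to 4 over left-out lysates, and heavy against medium 4 with the replicate block or the lysate block. Medium against input in vehicle gave 0 in each genotype alone. The shift of medium against input gave 2 from HHT replicate 1, replicate 2 or limma, that of heavy against input 1 with total counts, 0 with limma and 1 for each left-out lysate, and that of heavy against medium 2 with total counts or limma and 2 to 4 over left-out lysates. Fewer libraries were used where a lysate was left out, and the cause of the other moves was not tested.

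Counts over all genes also moved. For KO against WT over both treatments input gave 0 to 4 calls, medium 0 to 3 and heavy 0 to 4. Under HHT alone, 4 libraries with a replicate block gave the most, 6 for input, 306 for medium and 62 for heavy. HHT against vehicle in input called 1732 genes, 120 in KO slices alone and 3200 from HHT replicate 1, and in medium 6562, 2679 in KO alone. Medium against input after HHT called 4245 and at least 1156, heavy against medium after HHT 5002 and at least 2081, the shift of medium against input 2415 and 1007 to 4241, medium against input in vehicle 2755 and 0 to 5742, heavy against input in vehicle 6493 and at least 3637, and heavy against medium in vehicle 7541 and at least 4933. The KO effect on heavy against input called 1 and 0.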
